A study of Mus musculus with 6 samples.

Results

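The mitosis genes described here are 44 genes of the mitotic kinases, spindle, kinetochore and cytokinesis, chosen by symbol. Of the 44, 43 had a probe set with a single gene symbol and were measured, among 19938 such genes on the arrays, and Ccnb1 was not analysed here. The RNA came from embryoid bodies (EBs), floating aggregates in which embryonic stem (ES) cells leave the pluripotent state, made from the established mouse ES line R1 by plating 35000 cells per ml. Every EB, day 0 included, was grown without the self-renewal cytokine LIF. Retinoic acid (RA), a vitamin A derivative used to drive differentiation, was given at 2 μM to EBs 4 days old. The groups are EBs with 4 days of RA (day 4), with 3 days of RA (day 3) and just before RA (day 0), each with 2 samples on 1 Affymetrix Mouse Gene ST array apiece. Untreated EBs as old as those of day 3 and day 4 were not analysed here, and effects of RA cannot be told apart from those of age. The study describes the EB procedure of day 0 and day 4 as repeated, but the array labels do not say so of the arrays, and the p-values may reflect technical spread only.

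In mitosis, cyclin-dependent kinase 1 with its cyclins, the Aurora kinases and the Polo-like kinases drive chromosomes to condense and attach to the spindle through kinetochores. The spindle checkpoint holds the cell until all are attached, after which the anaphase-promoting complex marks securin and cyclin B for destruction, separase cuts cohesin and the cell divides in cytokinesis. Transcripts of most of these genes build up in the G2 and M phases of the cycle, and pluripotent cells are known for rapid cycles with a short G1 phase.

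Array medians over all probe sets (log2 intensity) were 6.69 and 6.73 at day 4, below those of the other days. They were 6.85 and 6.83 at day 3 and 6.82 on both day 0 arrays. Arrays of the same day correlated at 0.999 on each day (Pearson, over genes, which are not independent). The markers of pluripotent cells followed the labels, since 8 of 8 were lower at day 4 and also at day 3 than at day 0. Their list median was 6.57 to 6.65 on the day 4 arrays, 6.79 to 6.90 on the day 3 arrays and 10.23 to 10.26 on the day 0 arrays. These markers thus moved with the comparisons below, and the part of the makeup of the EBs in those comparisons was not tested. In bulk RNA, fewer cells of a type and less RNA per cell cannot be told apart. Values are RMA log2 intensities, a log2 change is the difference between the means of 2 days, and a gene was called changed at an adjusted p of 0.05 or below (limma, Benjamini-Hochberg over all 19938 genes). The comparisons of day 4 and of day 3 with day 0 share the day 0 arrays, and that of day 4 with day 3 uses arrays of both.

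After 4 days in RA, 34 of the 43 mitosis genes were lower than at day 0, 2 were higher (Cdc25b and Nusap1) and 7 did not pass the test. Over all genes the test called 51.5% in the same comparison, 25.6% lower and 25.9% higher, so that 79.1% of the mitosis genes were lower against 25.6% of all genes. Their median log2 change was −0.49, and that of all genes was −0.00. In 40 of the 43, both day 4 arrays lay below both day 0 arrays, which was so for 36.4% of all genes, and in 2 both lay above, which was so for 36.6%. The falls were modest in size. Espl1 and Cenpe alone among the members fell at least 2-fold, and the median of the members' levels was 10.30 and 10.34 on the day 4 arrays, against 11.05 and 11.08 on the day 0 arrays.

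**Figure D1:**
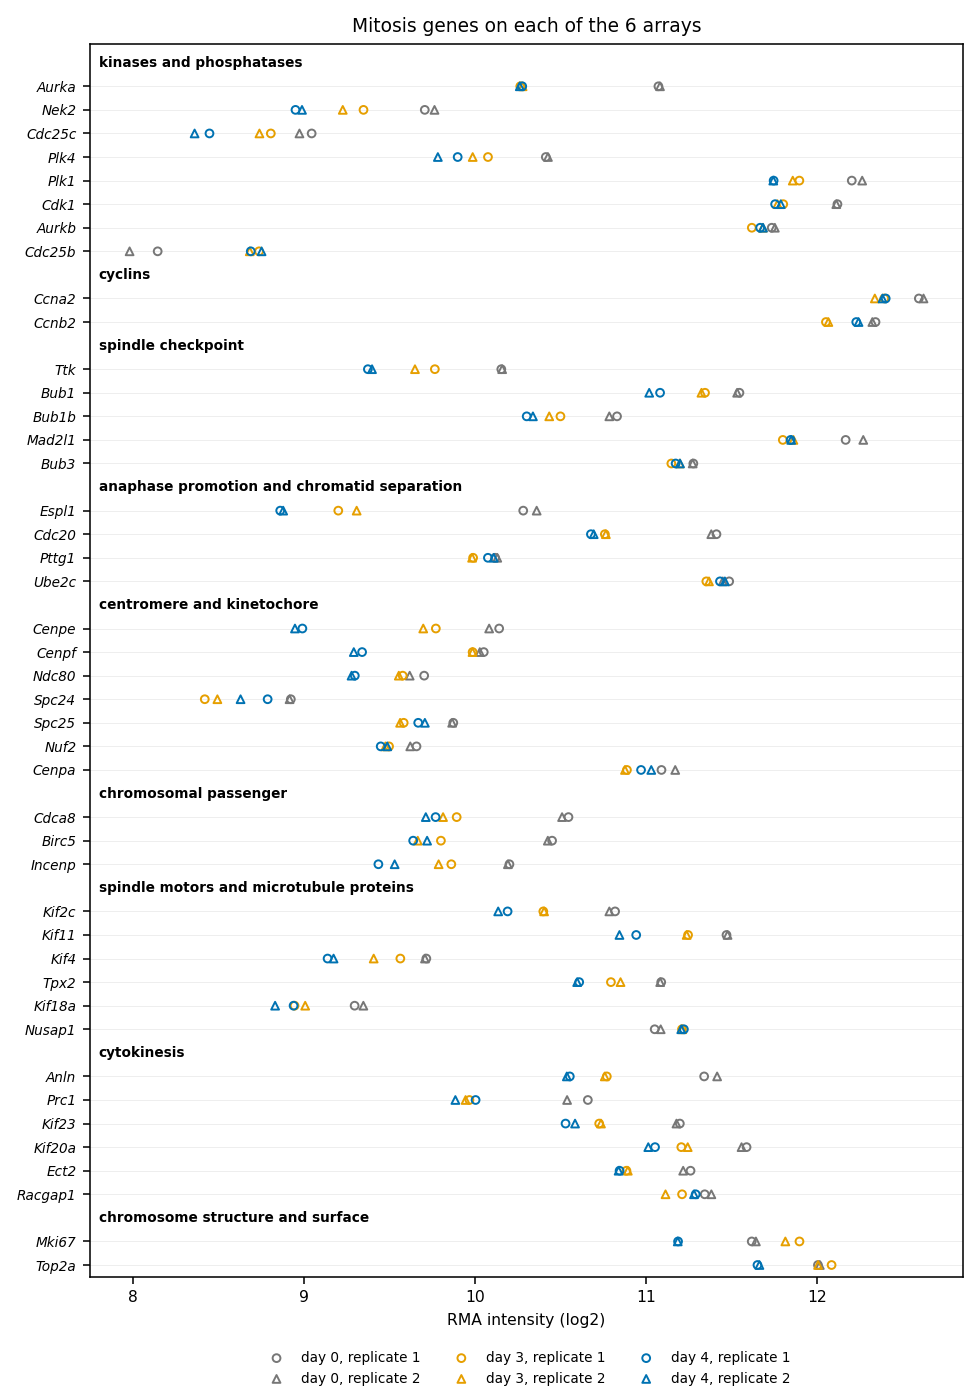
RMA intensity (log2, horizontal axis) of the 43 mitosis genes on each of the 6 arrays, grouped by role and ordered within a role by the change at day 4, with colours for days and circles and triangles for replicates 1 and 2. The grey day 0 points lie to the right of the blue day 4 points in 40 genes and to their left in Cdc25b and Nusap1, and levels of different genes cannot be set against each other.

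Much of the change was there at day 3. Against day 0, 33 of the 43 genes were lower at day 3, 3 were higher (Cdc25b, Nusap1 and Mki67) and 7 did not pass, with a median log2 change of −0.33 against −0.05 for all genes. The test called 51.9% of all genes at day 3, 28.1% lower and 23.8% higher. Both day 3 arrays lay below both day 0 arrays in 39 members and above them in 3, against 43.5% and 31.9% of all genes. Between day 4 and day 3 the genes parted. At day 4, 18 were lower than at day 3, 2 were higher (Ccnb2 and Spc24) and 23 did not pass, where the test called 28.1% of all genes, 12.2% lower and 15.8% higher. Both day 4 arrays lay below both day 3 arrays in 25 members and above them in 7, against 25.2% and 41.3% of all genes. The members' median was −0.11 and that of all genes 0.05, and with each array centred on its own median over all probe sets the members' median turned to 0.02, with 11 lower and 7 higher. That centring shifts all genes of an array alike, and it moved the median of all genes to 0.18.

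By the 2 steps, 17 genes were lower at day 3 with no further call at day 4, among them Aurka, Cdc20 and Birc5, and 14 were lower at day 3 and lower again at day 4, among them Espl1, Ttk and Anln. Cenpf, Ndc80 and Top2a were lower only in the second step, with no call at day 3. Ccnb2 and Spc24 were lower at day 3 and then higher, Cdc25b and Nusap1 were higher at day 3 with no further call, and Mki67 was higher at day 3 and then lower. Aurkb, Bub3, Pttg1 and Ube2c passed the test in no comparison. With 2 arrays a day, some calls rested on 1 array. Leaving out a single array lost the call of 5 genes at day 4 against day 0 (Ccna2, Nuf2, Nusap1, Spc24 and Spc25, adjusted p 0.0511 to 0.177 where lost) and of 8 at day 3 against day 0 (Bub1, Cdc25c, Kif11, Kif4, Mki67, Nuf2, Nusap1 and Racgap1, 0.05 to 0.166). At day 4 against day 3 it lost that of 12, namely Anln, Bub1, Ccnb2, Kif20a, Kif23, Kif2c, Kif4, Ndc80, Nek2, Spc24, Tpx2 and Ttk (adjusted p 0.0502 to 0.159), and 8 members were lower without day 3 replicate 1. A gene that passed in one step and not in the other is not thereby shown to differ between them, since the difference of the steps was not tested.

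**Figure D2:**
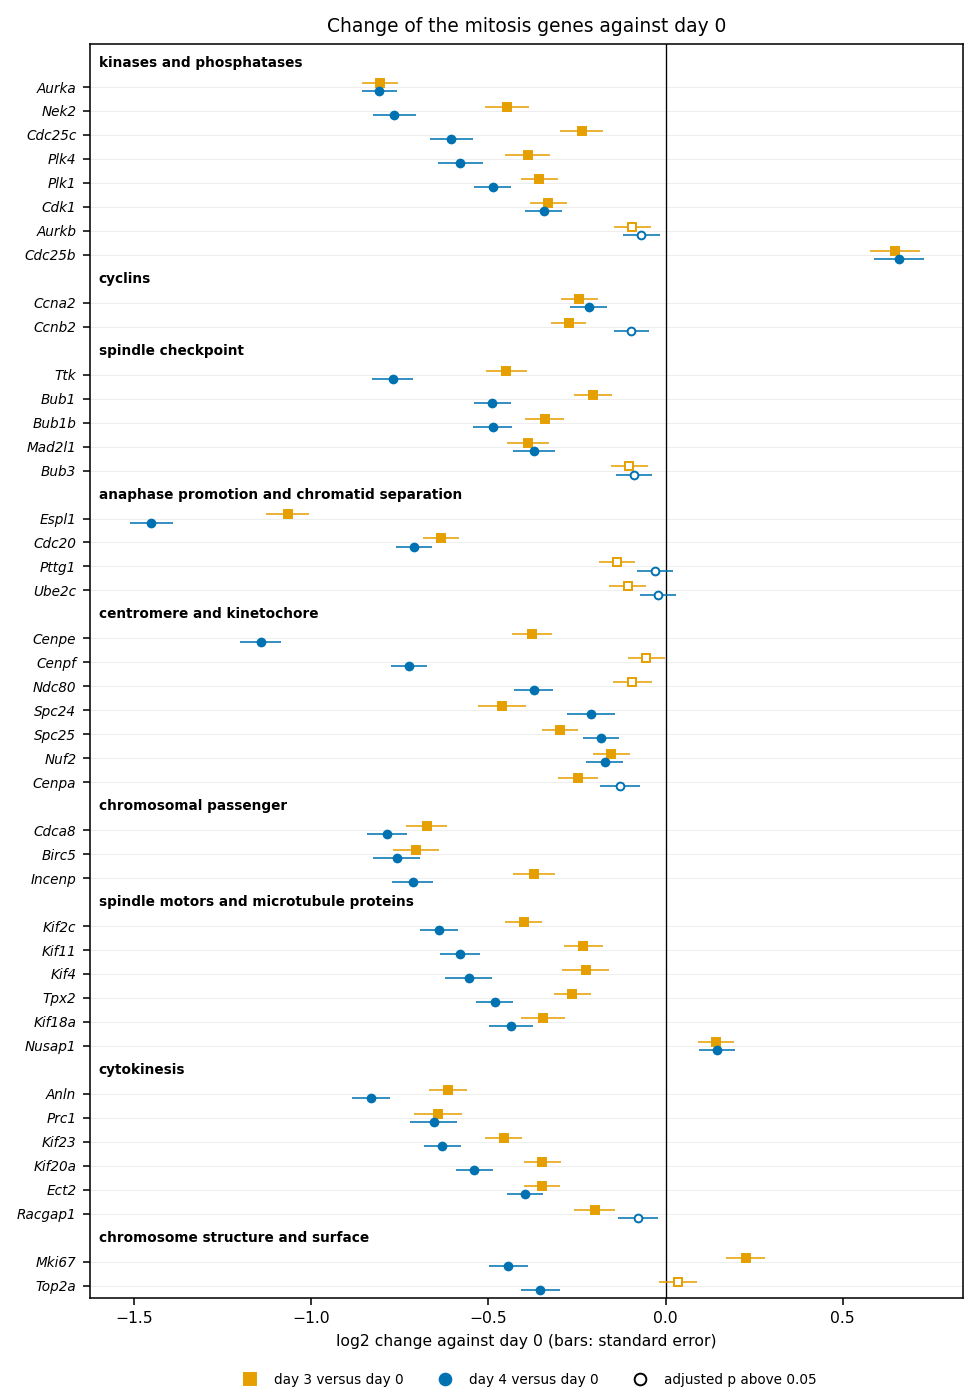
Log2 change against day 0 (horizontal axis) of each of the 43 mitosis genes at day 3 (squares) and at day 4 (circles), with bars for the standard error from limma and open symbols for an adjusted p above 0.05. Most symbols lie left of 0, Cdc25b and Nusap1 lie right of it on both days, and Mki67 lies right of it at day 3 and left of it at day 4.

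The promoters of the mitosis genes share sequence that was not used to choose them. In mammalian cells, many genes of the G2 and M phases carry a CHR element, with the letters TTTGAA, which is bound by the MuvB complex together with p130 in resting cells or with B-Myb and FoxM1 in dividing cells. Many also carry CCAAT boxes, which the factor NF-Y binds. RefSeq windows from 250 bases before to 50 after the start site (assembly GRCm38.p6) were at hand for 36 of the 43 genes and for 15614 of all genes tested, and were searched on both strands. A match in both windows of a gene with 2 start sites was counted once, at its position from the nearest start. TTTGAA was found in 25 of the 36 (69.4%), against 17.3% of all genes. CCAAT was found in 26 (72.2%), against 41.7%, and both were found in 22 (61.1%), against 7.94%. The CHR letters lay near the start site, with 74.2% of their 31 matches between 60 bases before and 40 after it, against 25% of the matches in all genes, and 17 of the 36 genes held at least 2 CCAAT boxes in 1 window, against 14.3% of all genes. S phase genes, the nearest comparison, held TTTGAA in 13.9% of 36 promoters and CCAAT in 63.9%. Other lists described below held TTTGAA often too. The share was 51.9% of 27 other spindle, centrosome and cytokinesis genes, 43.8% of 16 condensin and cohesin genes and 38.5% of 26 other kinetochore genes. It was 41.2% of 17 genes of the MuvB, B-Myb and FoxM1 list, 14.3% of 14 of the anaphase-promoting complex and 12.5% of 8 other mitotic kinases and entry regulators. A match describes the letters only and is not shown to be a site. No other form of either motif was searched for, so a gene without TTTGAA is not shown to lack a CHR element. The windows below span 190 bases before to 30 after the start, written 5′ to 3′ on the gene's strand, with each match to either motif, read on either strand, in capitals. They are shown for 3 genes with large falls that held both motifs (Espl1 at chr15:102296103-102296322, plus strand, Cdca8 at chr4:124936888-124937107, minus strand, and Ttk at chr9:83834499-83834718, plus strand), for Mki67 (chr7:135716350-135716569, minus strand), which rose and then fell, and for Cdc25b (chr2:131186758-131186977, plus strand), which rose and held no TTTGAA.
Espl1: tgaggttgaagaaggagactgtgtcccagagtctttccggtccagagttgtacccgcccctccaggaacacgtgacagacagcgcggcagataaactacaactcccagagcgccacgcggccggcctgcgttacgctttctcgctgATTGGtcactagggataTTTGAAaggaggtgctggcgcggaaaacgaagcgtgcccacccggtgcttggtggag
Cdca8: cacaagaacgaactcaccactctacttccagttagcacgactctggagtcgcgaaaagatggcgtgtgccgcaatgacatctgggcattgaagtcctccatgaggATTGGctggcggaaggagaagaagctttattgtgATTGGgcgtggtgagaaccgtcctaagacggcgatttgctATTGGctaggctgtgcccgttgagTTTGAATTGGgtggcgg
Ttk: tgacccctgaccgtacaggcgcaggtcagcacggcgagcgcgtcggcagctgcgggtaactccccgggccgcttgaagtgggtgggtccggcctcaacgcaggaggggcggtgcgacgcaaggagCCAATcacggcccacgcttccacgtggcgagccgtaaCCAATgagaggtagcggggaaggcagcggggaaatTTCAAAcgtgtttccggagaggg
Mki67: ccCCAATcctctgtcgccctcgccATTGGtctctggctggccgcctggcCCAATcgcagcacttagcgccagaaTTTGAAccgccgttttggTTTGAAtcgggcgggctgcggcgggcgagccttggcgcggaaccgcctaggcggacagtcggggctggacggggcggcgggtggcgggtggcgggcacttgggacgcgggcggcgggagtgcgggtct
Cdc25b: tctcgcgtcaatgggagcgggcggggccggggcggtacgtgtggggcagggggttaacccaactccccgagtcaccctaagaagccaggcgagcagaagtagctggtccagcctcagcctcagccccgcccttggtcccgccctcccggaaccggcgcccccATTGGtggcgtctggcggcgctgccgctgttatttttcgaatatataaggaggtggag

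In Espl1 and Ttk the CHR letters follow the CCAAT box by a short stretch close to the start, in Cdca8 the 2 motifs overlap in the run TTTGAATTGG, the one member window where they did, and in Mki67 both copies of TTTGAA lie further upstream. Among the 36 genes, most of those with TTTGAA and most of those without it were lower at day 4. Of all genes, 25.6% were lower and 25.9% higher in that comparison. The 25 with it had a median log2 change of −0.49, with 20 lower and 0 higher at the adjusted p from limma, and the 11 without it had a median of −0.44, with 8 lower and 2 higher. The 2 genes that rose, Cdc25b and Nusap1, were among the 11 without it. Birc5 and Plk4 held neither motif in the window and fell, by 0.76 and by 0.58 on the log2 scale. No difference between the 2 sets was tested.

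**Figure D3:**
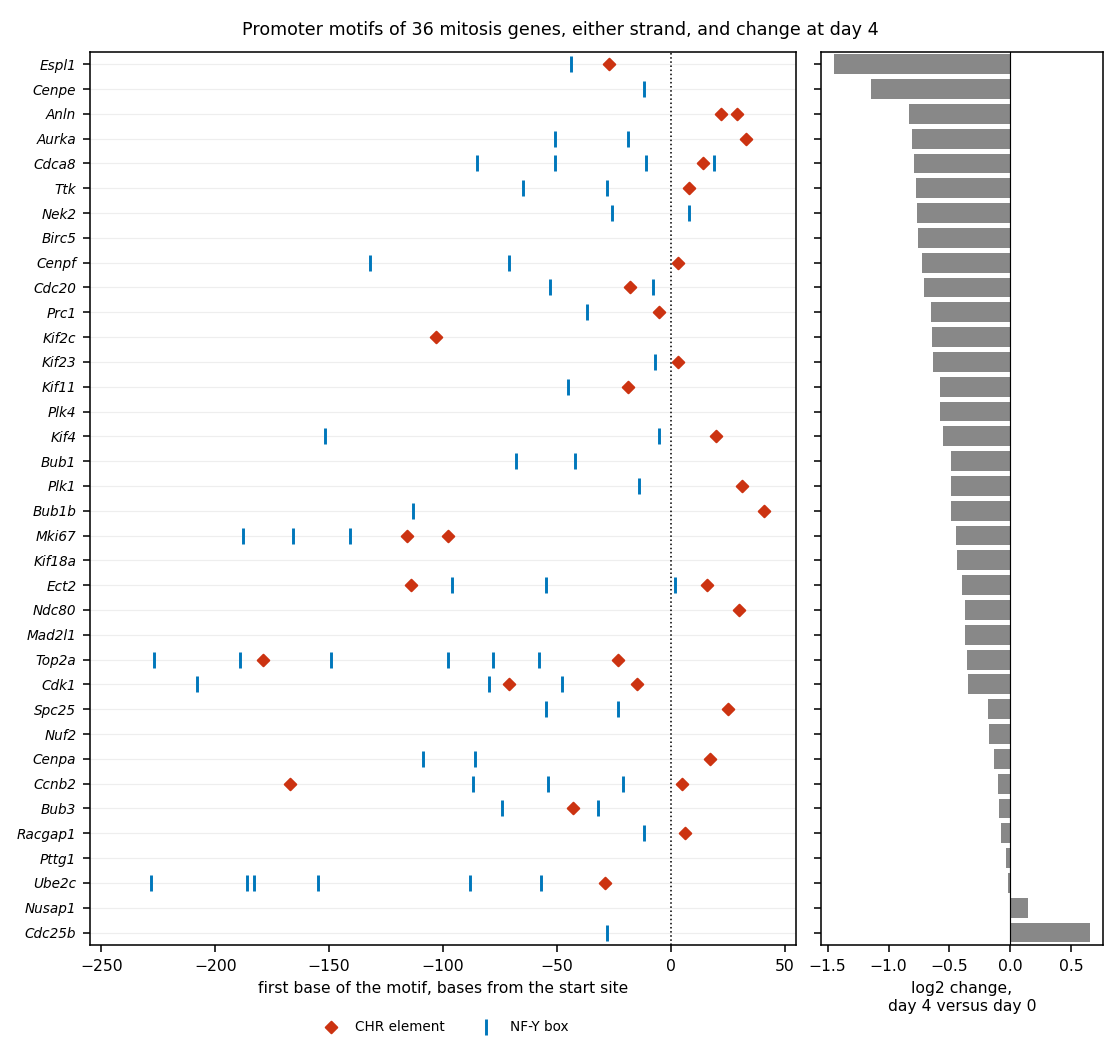
Left, first base of each match to TTTGAA (CHR element, red diamonds) and CCAAT (NF-Y box, blue bars), on either strand, in bases from the nearest start site, for the 36 mitosis genes with a promoter window, and right, log2 change at day 4 against day 0 as bars from 0. The red diamonds cluster around the start site, and genes with and without them are found from the largest fall to the smallest, while Nusap1 and Cdc25b at the bottom have none.

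Among the 8 kinases and phosphatases, 6 were lower and 1 was higher at day 4 than at day 0, with a median log2 change of −0.53, and the same counts held at day 3, with a median of −0.34. Aurka, the Aurora kinase of the spindle poles (probe set 10490104), read 11.07 and 11.08 on the day 0 arrays, 10.27 and 10.28 on those of day 3 and 10.28 and 10.26 on those of day 4. Both later days lay far below day 0 and overlapped each other. Its mean was 10.27 ± 0.01 at day 4 and 11.08 ± 0.01 at day 0 (SD, n = 2 each), a log2 change of −0.81 (SE 0.05, adjusted p = 8.73e-06, limma), and the change between day 4 and day 3 was −0.00. Its relative Aurkb, the Aurora kinase of the chromosomal passenger complex (probe set 10377405), read 11.74 and 11.75 on the day 0 arrays, 11.62 and 11.68 on those of day 3 and 11.67 and 11.69 on those of day 4. The later arrays were all below day 0, but by only 0.07 at day 4 (SE 0.05) and 0.09 at day 3 (SE 0.05) on the log2 scale, and neither change passed the test (adjusted p = 0.333 and 0.184, limma). The difference between Aurka and Aurkb was not tested.

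The 2 phosphatases among the members, which switch on Cdk1, went opposite ways. Their relative Cdc25a, outside the members, was lower, by 0.49 at day 4 (adjusted p = 0.00016, limma) and by 0.39 at day 3. Cdc25b (probe set 10476252) read 8.15 and 7.98 on the day 0 arrays, 8.74 and 8.68 on those of day 3 and 8.69 and 8.75 on those of day 4. All later arrays lay above both day 0 arrays, and Cdc25b was the one member whose rise kept its call under every alternative tried. The change was 0.66 at day 4 (SE 0.07, adjusted p = 0.000141, limma), a 1.58-fold higher intensity, and 0.65 at day 3 (SE 0.07, adjusted p = 0.000171). Cdc25c (probe set 10458195) read 9.05 and 8.97 on the day 0 arrays, 8.81 and 8.74 on those of day 3 and 8.45 and 8.36 on those of day 4. The 3 days did not overlap, and the level fell in both steps, by 0.24 at day 3 (adjusted p = 0.0135, limma) and by a further 0.37 at day 4 (adjusted p = 0.00533). Without 1 replicate the call at day 3 was lost in 2 of the cases, with an adjusted p of 0.0733 without day 0 replicate 1 and of 0.0794 without day 3 replicate 2.

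The other 4 kinases were lower on both later days than at day 0. Nek2, which acts in splitting the centrosomes, had log2 changes of −0.77 at day 4 and −0.45 at day 3, and Plk4, the kinase that starts centriole copying, of −0.58 and −0.39. Plk1, the main Polo-like kinase of mitosis, changed by −0.49 and −0.36. Cdk1, the kinase that drives entry into mitosis, changed by −0.34 and −0.33. Nek2 was also lower at day 4 than at day 3 (−0.32, adjusted p = 0.00983, limma). Of the 2 cyclins measured, both partners of Cdk1, Ccna2 (probe set 10497831) read 12.60 and 12.62 on the day 0 arrays, 12.39 and 12.34 on those of day 3 and 12.40 and 12.38 on those of day 4, with changes of −0.22 at day 4 (adjusted p = 0.0103, limma) and −0.24 at day 3 (adjusted p = 0.00614). Ccnb2 (probe set 10594774) read 12.34 and 12.32 on the day 0 arrays, 12.05 and 12.07 on those of day 3 and 12.23 and 12.24 on those of day 4. Its day 4 arrays lay between the other days. It was lower at day 3 than at day 0 by 0.27 on the log2 scale (adjusted p = 0.00277) and higher at day 4 than at day 3 by 0.18 (adjusted p = 0.0378), and the change at day 4 against day 0, −0.10, did not pass (adjusted p = 0.155). The rise of Ccnb2 was lost under most alternatives, with an adjusted p of 0.118 after quantile normalization over the named genes.

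Of the 5 genes of the spindle checkpoint, 4 were lower at day 4 and 4 at day 3 than at day 0. Ttk (Mps1), the kinase at the head of the checkpoint (probe set 10587508), read 10.15 and 10.16 on the day 0 arrays, 9.77 and 9.65 on those of day 3 and 9.37 and 9.40 on those of day 4. The 3 days did not overlap, and the log2 change was −0.77 at day 4 against day 0 (SE 0.06, adjusted p = 2.55e-05, limma), −0.45 at day 3 against day 0 and −0.32 at day 4 against day 3 (adjusted p = 0.00793). Ttk is one of the genes whose promoter is printed above, with its CHR letters just after the start. The kinase gene Bub1 and the gene of its pseudokinase relative BubR1, Bub1b, both changed by −0.49 at day 4 against day 0, and Mad2l1, whose product Mad2 binds Cdc20, changed by −0.37. Bub3, the WD-repeat partner that carries Bub1 and BubR1 to the kinetochore (probe set 10558248), read 11.28 and 11.27 on the day 0 arrays, 11.15 and 11.20 on those of day 3 and 11.17 and 11.20 on those of day 4. Its later arrays were all lower than day 0, by 0.09 at day 4 (SE 0.05, adjusted p = 0.203, limma), which did not pass.

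The 4 genes of anaphase and chromatid separation held both the largest fall of the members and 2 transcripts with no call. Espl1, which encodes separase, the protease that cuts cohesin (probe set 10427166), read 10.28 and 10.36 on the day 0 arrays, 9.20 and 9.31 on those of day 3 and 8.86 and 8.88 on those of day 4. The 3 days stood well apart. Its mean was 8.87 ± 0.01 at day 4 and 10.32 ± 0.06 at day 0 (SD, n = 2 each), a log2 change of −1.45 (SE 0.06, adjusted p = 1.49e-06, limma), or 2.73-fold lower, with −1.07 at day 3 against day 0 and −0.38 at day 4 against day 3 (adjusted p = 0.00471). Pttg1, which encodes securin, the inhibitor of separase (probe set 10385325), read 10.12 and 10.13 on the day 0 arrays, 9.99 and 9.98 on those of day 3 and 10.08 and 10.11 on those of day 4. It was lowest at day 3, by 0.14 on the log2 scale (adjusted p = 0.0554, limma), and within 0.03 of day 0 at day 4 (adjusted p = 0.656), so no change passed.

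Cdc20, the activator of the anaphase-promoting complex, was lower by 0.71 at day 4 and by 0.63 at day 3 on the log2 scale than at day 0. Ube2c, the ubiquitin-conjugating enzyme that works with that complex (probe set 10478572), read 11.49 and 11.45 on the day 0 arrays, 11.35 and 11.37 on those of day 3 and 11.43 and 11.46 on those of day 4. The day 4 arrays overlapped those of day 0, with a log2 change of −0.02 (SE 0.05, adjusted p = 0.775, limma), and the change at day 3 was −0.11 (adjusted p = 0.124). Cdc20 held both motifs in its promoter and so did Ube2c.

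Of the 7 genes of the centromere and kinetochore, 6 were lower at day 4 than at day 0, with changes of all 7 from −1.14 to −0.13 and a median of −0.21, and 5 were lower at day 3. Cenpe, a kinesin motor that moves chromosomes to the spindle equator (probe set 10496204), read 10.14 and 10.08 on the day 0 arrays, 9.77 and 9.70 on those of day 3 and 8.99 and 8.95 on those of day 4. The days did not overlap, and most of its fall came in the last day. The log2 change was −1.14 at day 4 against day 0 (SE 0.06, adjusted p = 3.07e-06, limma), 2.21-fold lower, −0.38 at day 3 against day 0 and −0.77 at day 4 against day 3 (SE 0.06, adjusted p = 0.000376), the largest of any member between those days. Cenpf, a large coiled-coil protein of the outer kinetochore (probe set 10360985), read 10.05 and 10.03 on the day 0 arrays, 9.99 and 9.99 on those of day 3 and 9.34 and 9.29 on those of day 4. Its day 3 arrays lay just below those of day 0, with no call (−0.05, adjusted p = 0.426, limma), and its day 4 arrays were lower than those of day 3 by 0.67 (adjusted p = 0.000433).

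The Ndc80 complex, which binds microtubules, has 4 subunit genes among the members. Ndc80 was lower at day 4 by 0.37 and Nuf2 by 0.17 on the log2 scale than at day 0, and Spc25 by 0.18. Spc24 (probe set 10591556) read 8.92 and 8.92 on the day 0 arrays, 8.42 and 8.49 on those of day 3 and 8.79 and 8.63 on those of day 4. Its day 4 arrays lay between the other days. The change was −0.21 at day 4 against day 0 (adjusted p = 0.0347, limma), −0.46 at day 3 against day 0 (adjusted p = 0.000888) and 0.25 at day 4 against day 3 (adjusted p = 0.0321). Both calls of Spc24 at day 4 were lost without single arrays, with an adjusted p of 0.177 against day 0 without day 4 replicate 2 and of 0.156 against day 3 without day 3 replicate 1. Nuf2 also lost its calls against day 0 without some single arrays, with an adjusted p of 0.109 at day 4 and 0.149 at day 3 without day 0 replicate 1. Cenpa, the histone variant that marks the centromere, was lower at day 3 (−0.25, adjusted p = 0.00791) and not called at day 4 (−0.13, adjusted p = 0.0964).

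The 3 genes of the chromosomal passenger complex outside Aurkb were all lower on both later days, with a median log2 change of −0.76 at day 4 and −0.67 at day 3. Cdca8, which encodes borealin (probe set 10516246), read 10.55 and 10.51 on the day 0 arrays, 9.89 and 9.81 on those of day 3 and 9.77 and 9.71 on those of day 4, so that day 0 stood apart and the later days lay close together. The change was −0.79 at day 4 against day 0 (SE 0.06, adjusted p = 1.94e-05, limma) and −0.11 at day 4 against day 3 (adjusted p = 0.187). Incenp, the scaffold of the complex (probe set 10465861), read 10.20 and 10.19 on the day 0 arrays, 9.86 and 9.79 on those of day 3 and 9.44 and 9.53 on those of day 4. It fell in both steps, by 0.37 at day 3 and by a further 0.34 at day 4 (adjusted p = 0.00647, limma). Birc5, which encodes survivin, was lower by 0.76 at day 4 (SE 0.07) and by 0.71 at day 3. Their kinase partner Aurkb, described above, did not pass the test on either day.

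Among the 6 spindle motor and microtubule genes, 5 were lower and 1 higher at day 4 than at day 0, and the counts at day 3 were the same. Kif2c, which encodes the microtubule depolymerase MCAK (probe set 10515431), read 10.82 and 10.79 on the day 0 arrays, 10.40 and 10.40 on those of day 3 and 10.19 and 10.14 on those of day 4, a log2 change of −0.64 at day 4 against day 0 (SE 0.05, adjusted p = 3.71e-05, limma). Kif11, whose product Eg5 pushes the spindle poles apart (probe set 10462796), read 11.47 and 11.48 on the day 0 arrays, 11.25 and 11.24 on those of day 3 and 10.94 and 10.85 on those of day 4. Both genes stepped down without overlap, and for Kif11 the second step was −0.35 (adjusted p = 0.00494, limma) and the first −0.23 (adjusted p = 0.0105). The chromokinesin gene Kif4 changed by −0.56 at day 4 against day 0, Tpx2, which activates Aurora A and nucleates microtubules, by −0.48, and Kif18a, a motor that shortens kinetochore microtubules, by −0.44. Nusap1, a protein that bundles spindle microtubules (probe set 10474984), read 11.05 and 11.09 on the day 0 arrays, 11.21 and 11.21 on those of day 3 and 11.22 and 11.21 on those of day 4. Both later days lay above day 0, by 0.15 at day 4 (SE 0.05, adjusted p = 0.0465, limma) and 0.14 at day 3 (SE 0.05, adjusted p = 0.0492), close to the threshold. The call at day 4 was lost when any 1 of the 6 arrays was left out, with an adjusted p of 0.162 without day 0 replicate 1, and the change was −0.00 when arrays were centred on the median of the named genes.

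The 6 cytokinesis genes were all lower at day 3 than at day 0, and 5 were lower at day 4. Anln, which encodes anillin, a scaffold of the contractile ring (probe set 10591781), read 11.34 and 11.42 on the day 0 arrays, 10.77 and 10.76 on those of day 3 and 10.56 and 10.54 on those of day 4. The days did not overlap, with a log2 change of −0.83 at day 4 against day 0 (SE 0.05, adjusted p = 1.1e-05, limma), −0.61 at day 3 against day 0 and −0.22 at day 4 against day 3 (adjusted p = 0.023). Prc1, which bundles the microtubules of the central spindle, changed by −0.65 at day 4 and −0.64 at day 3. Of the 2 motor genes that work there, Kif23 changed by −0.63 at day 4 and Kif20a by −0.54. Ect2, the exchange factor that activates RhoA, changed by −0.40. Racgap1, the partner of Kif23 in centralspindlin, was lower at day 3 (−0.20, adjusted p = 0.021) and not called at day 4 (−0.08, adjusted p = 0.31), and its call at day 3 was lost without single arrays (adjusted p = 0.124 without day 3 replicate 2).

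The 2 genes of chromosome structure and surface were the only role with no fall at day 3. Mki67, which encodes Ki-67, the proliferation antigen that coats mitotic chromosomes (probe set 10568714), read 11.62 and 11.64 on the day 0 arrays, 11.90 and 11.82 on those of day 3 and 11.19 and 11.19 on those of day 4. Day 3 stood above day 0 and day 4 below it. Its change was 0.23 at day 3 against day 0 (SE 0.05, adjusted p = 0.0105, limma), −0.67 at day 4 against day 3 (adjusted p = 0.000498) and −0.44 at day 4 against day 0 (SE 0.05, adjusted p = 0.00032). The rise at day 3 was lost without day 3 replicate 1 (adjusted p = 0.0714) and fell just short without day 0 replicate 1 (adjusted p = 0.05 after rounding). Top2a, which encodes topoisomerase II alpha, the enzyme that untangles chromatids, was the one member with 2 single-symbol probe sets. The brighter (10390707) read 12.01 and 12.02 on the day 0 arrays, 12.09 and 12.01 on those of day 3 and 11.65 and 11.66 on those of day 4, with changes of 0.03 at day 3 (no call) and −0.35 at day 4 against day 0. The other (10390746) read 3.88 to 5.08 on the 6 arrays, below the mean of 6 used as the limit for dim genes, and no change is given for it.

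The split between day 3 and day 4 went with the length of the gene in the genome. Span is the distance in RefSeq from the first to the last base of a gene, introns included. Across the 43 mitosis genes, Spearman's rho between span and the log2 change at day 4 against day 3 was −0.59, and across 92 other mitosis genes it was −0.70. It was −0.19 across 19919 genes and −0.42 across the 6698 with a mean of 9 or more, a range most members lie in. These are descriptions over genes of the same 4 arrays, which are not independent points. Of the 14 shortest members, 2 were lower and 1 was higher at day 4 than at day 3, with a median of 0.015. Of the 14 longest, 9 were lower and 0 were higher, with a median of −0.25. Of all genes, 12.2% were lower and 15.8% higher in that comparison. Among the genes with a mean of 9 or more, the median was 0.181 in the 670 of shortest span and −0.139 in the 670 of longest span. Against day 0 the relation was weaker, with rho −0.31 at day 4 and 0.10 at day 3. Cenpe spans 61.0 kb, Cenpf 47.5 kb and Mki67 26.7 kb, while Ube2c spans 3.0 kb and Spc24 5.0 kb. The trend on span and intensity was also taken out of each array. In that setting 18 members were lower and 0 were higher at day 4 than at day 3, with a median of −0.15. They were not the same 18, since 5 calls were lost and 3 were gained. Those lost were the falls of Anln, Kif23 and Tpx2 and the rises of Ccnb2 and Spc24. At day 4 against day 0, 33 members were lower and 2 higher in that setting. Whether RNA quality or labelling moved with span was not tested.

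**Figure D4:**
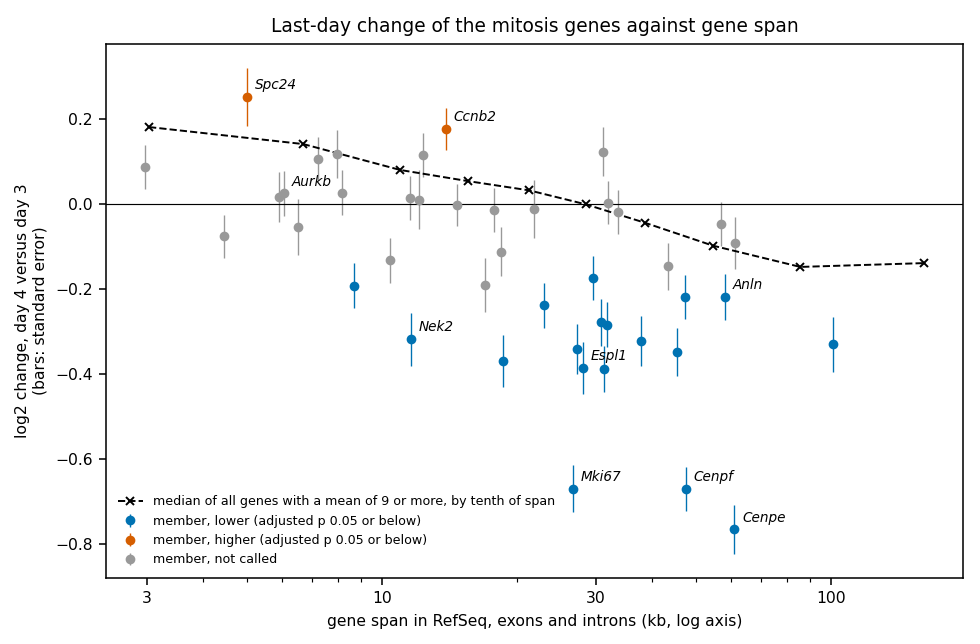
Log2 change at day 4 against day 3 (vertical axis, bars for the standard error) of the 43 mitosis genes against gene span in kb (log axis), with crosses for the median of all genes with a mean of 9 or more in 10 groups of increasing span. Members lower at an adjusted p of 0.05 or below (blue) are mostly the longer ones and lie below the crosses. Spc24 and Ccnb2 (orange) lie above them. With arrays centred on their medians over all probe sets, the members' median is 0.02 and that of all genes tested 0.18. The members' median minus that of all genes tested is −0.159 with and without this centring.

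Markers of other cells moved with the days as well. Of the 5 markers of primitive red cells measured, 5 were higher at day 3 than at day 0, and 4 were lower at day 4 than at day 3. Their list median was 10.02 and 9.78 on the day 4 arrays, 12.36 and 12.25 on the day 3 arrays and 7.23 and 7.30 on the day 0 arrays. Of 6 markers of mesenchyme, 4 were higher and 1 was lower at day 4 than at day 0, with a list median of 9.41 and 9.43 on the day 4 arrays and of 6.44 and 6.15 on the day 0 arrays. Of 7 markers of postmitotic neurons, 3 were higher (Syt1, Dcx and Map2) and 3 lower (Stmn2, Tubb3 and Elavl3) at day 4 than at day 0. The neuron markers' median log2 change was −0.14, while their list median, which can fall on another gene on each array, was 7.48 and 7.45 at day 4 and 6.98 and 6.84 at day 0. The list of endothelial markers had 4 higher and 2 lower at day 4, with medians of 9.97 and 9.93 at day 4 and 8.94 and 8.66 at day 0, and that of visceral endoderm had 3 higher and 1 lower, with medians of 6.90 and 7.07 at day 4 and 6.69 and 6.96 at day 0. The part of these cells in the changes of the mitosis genes was not tested.

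Other lists of mitotic genes were counted in the same way, beside 25.6% of all genes lower and 25.9% higher at day 4 than at day 0. Of 31 other genes of the spindle, centrosome and cytokinesis, 28 were lower and 0 were higher at day 4 than at day 0 (median −0.52), led by the motor genes Kif20b (−1.25) and Kif14 (−1.13). Of 29 other genes of the centromere and kinetochore, 24 were lower and 3 were higher (median −0.45). Kntc1, which encodes the checkpoint protein Rod, changed by −0.96 and Zwilch, its partner, by −0.81, while Cenpb, which binds centromeric satellite DNA, changed by 0.53 and Ska2 by 0.38. Of 12 other mitotic kinases and entry regulators, 7 were lower and 0 were higher (median −0.39), with the largest falls in Gtse1 (−1.53), which binds microtubules, and in Plk3 (−0.97). The S phase genes were close to the mitosis genes, with 34 of 44 lower and 2 higher at day 4 than at day 0 (median −0.40), and with the largest falls in the replication genes Orc1 (−1.83) and Mcm10 (−1.23). No test set the 2 lists against each other.

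The condensin and cohesin genes, which fold chromosomes and hold sister chromatids together, had 16 of 20 lower and 0 higher at day 4 than at day 0 (median −0.37). At day 3 against day 0, 8 were lower and 4 were higher, and at day 4 against day 3, 13 were lower and 0 were higher (median −0.27, or −0.10 at day 3 against day 0). Of all genes, 28.1% were lower and 23.8% higher at day 3 against day 0, and 12.2% and 15.8% at day 4 against day 3. The 4 that were higher at day 3 were Smc3 (0.28), Nipbl (0.29), Pds5b (0.24) and Rad21 (0.18), which encode cohesin subunits or proteins that load or regulate it, and the largest falls at day 4 were those of Cdca5 (−0.97), which encodes sororin, and of the condensin subunit gene Ncapg2 (−0.95).

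Another list held 23 genes of factors of the CHR element, the CCAAT box (Nfya, Nfyb and Nfyc) and the E2F sites of the cycle. Of the 23, 13 were lower and 6 were higher at day 4 than at day 0 (median −0.24). Of all genes, 25.6% were lower and 25.9% were higher. Mybl2, which encodes B-Myb, the activator that joins MuvB in dividing cells, read 10.61 and 10.43 on the day 0 arrays, 9.27 and 9.37 on those of day 3 and 9.19 and 9.25 on those of day 4, a change of −1.30 at day 4 (SE 0.07, adjusted p = 5.96e-06, limma). E2f7 changed by −1.26 and Foxm1, the other activator, by −0.44. Rbl2, which encodes p130, the repressor partner of MuvB, had a mean of 6.57 ± 0.40 at day 0, 8.55 ± 0.14 at day 3 and 8.97 ± 0.03 at day 4 (SD, n = 2 each). All later arrays lay well above day 0, and the change of 2.41 at day 4 (SE 0.17, adjusted p = 1.56e-05, limma) was the largest of the list. Tfdp2, a dimer partner of E2F factors, changed by 0.90. The rest of the list went both ways at day 4. E2f4 changed by −0.55 and Mybl1 by −0.91. Lin9 changed by −0.47, Lin54 by −0.34 and Lin52 by 0.21, while Lin37 was not called (−0.01). Rbl1 changed by 0.45 and Rb1 by −0.24. The arrays measured transcripts, and no protein or binding was measured.

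**Figure D5:**
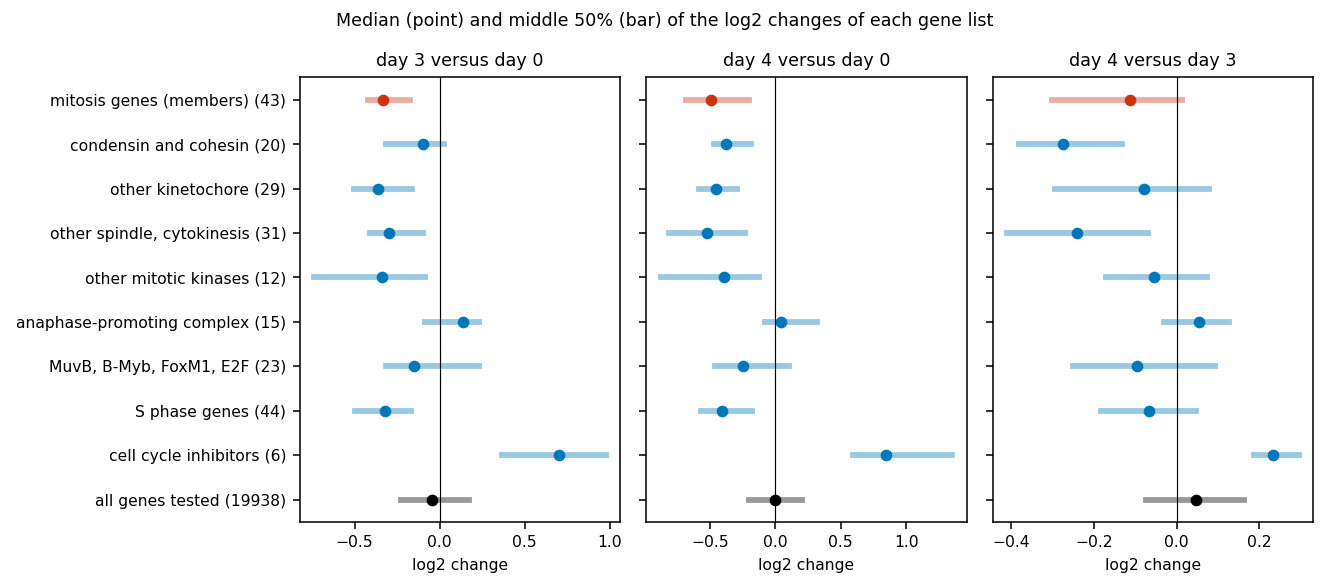
Median (point) and middle 50% (bar) of the log2 changes of each gene list at day 3 against day 0, at day 4 against day 0 and at day 4 against day 3, with the number of genes measured in brackets. The mitosis genes (red), the S phase genes and the other mitotic lists, except the anaphase-promoting complex, lie left of all genes tested (black) in the first 2 panels. The cell cycle inhibitors lie right of all genes tested. In the third panel the members' median is −0.11 and that of all genes tested 0.05. With arrays centred on their medians over all probe sets, these become 0.02 and 0.18.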

How the data were processed

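RNA of 6 samples, 2 for each of 3 days, was labelled and hybridised to Affymetrix Mouse Gene ST arrays. Deposited are log2 intensities from RMA, run by the authors in Partek (version not given in the sources used here), which corrects background, quantile normalizes the arrays and summarises probe sets. A change is thus relative to all other probe sets.

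Of 35557 probe sets, 21789 had 1 gene symbol in the platform annotation, 1621 several and 12147 were unnamed here. The brightest single-symbol probe set was taken per gene, which gave 19938 genes. All 6 arrays entered 1 limma fit (version 3.58.1, R 4.3.3, lmFit and eBayes, 3 residual and 4.07 prior degrees of freedom), two-sided, with Benjamini-Hochberg adjustment over all genes, called at 0.05. The fit was tested on simulated data. SEs come from the fit and SDs from 2 arrays, whose number limits the precision. The members, gene lists and tests were chosen with earlier results of these data known. Array values were given for the members with the largest changes in each role, for those that rose and for those that passed in no comparison, and other members by their changes. Cenpf, Top2a and the regulators and cohesin genes shown were chosen after their values were seen. Alternatives were other array scalings, moderation, samples, filters, probe sets, a replicate block and leaving out each array; centring on the named genes and removing a trend on gene span were chosen after seeing the data. Promoters and spans came from RefSeq (GRCm38.p6).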

Additional observations from a re-analysis of the deposited data

How the results depend on the processing

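Of the 34 falls of mitosis genes at day 4 against day 0, 30 kept their call under every alternative, as did 26 of 33 at day 3 against day 0 and 8 of 18 at day 4 against day 3. Of the rises, 1 of 2, 1 of 3 and 0 of 2 did, the one that held being Cdc25b. The scale of the arrays moved the values most. With each array centred on its median over all probe sets, the members' median was −0.381 at day 4 against day 0 and 0.018 at day 4 against day 3, where 11 were lower and 7 higher. Over all genes this centring gave 7132 higher and 3915 lower at day 4 against day 0, in place of 5154 and 5106, and 8829 higher and 1381 lower at day 4 against day 3, in place of 3156 and 2437. With centring on the named genes, the medians were −0.634 at day 4 and −0.431 at day 3 against day 0, with 1 member higher on each day and 0 higher at day 4 against day 3, Nusap1 changed by −0.001 at day 4, and 3781 genes were higher and 8521 lower at day 4 against day 0. At day 3 against day 0 it gave 3889 higher and 8495 lower, in place of 4749 and 5596, and at day 4 against day 3 it gave 2268 higher and 3081 lower. Relative to the median of all genes, the members' median at day 4 against day 0 was −0.487 as reported, −0.459 after cyclic loess, −0.452 after quantile normalization over the named genes and −0.427 with the trend on gene span removed. With the trend on gene span removed, the medians were −0.426 at day 4 and −0.269 at day 3 against day 0, and 0 members were higher at day 4 against day 3.

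The number higher was 1 at day 4 against day 0 with only the 4 arrays of the 2 days. At day 4 against day 3 it was 0 with only those 4 arrays, 4 with robust moderation on an intensity trend and 1 with quantile normalization over the named genes. Without single arrays, the numbers lower ran from 30 to 34 at day 4 against day 0, from 27 to 32 at day 3 against day 0 and from 8 (without day 3 replicate 1) to 17 at day 4 against day 3, with 11 without day 4 replicate 2. The numbers higher were 1 throughout at day 4 against day 0, 1 to 2 at day 3 against day 0 and 0 to 1 at day 4 against day 3. The medians without single arrays ran from −0.490 to −0.477, from −0.331 to −0.308 and from −0.152 to −0.095 in the same order. Where 1 array of a day was left, it was assumed to vary like the other days. The deviations of same-numbered arrays of different days correlated at 0.034 to 0.083. Such weak correlations cannot show whether those arrays came from the same culture, which the labels do not say. With the replicate block, 34 members were lower and 1 higher at day 4 against day 0, 32 and 2 at day 3 against day 0, and 17 and 1 at day 4 against day 3. The cause of these moves was not tested.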

Other observations

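The anaphase-promoting complex, the ubiquitin ligase that Cdc20 and Ube2c serve, did not follow the mitosis genes. Of 15 genes, 6 were higher and 2 were lower at day 4 than at day 0 (median log2 change 0.04). Of all genes, 25.9% were higher and 25.6% were lower in that comparison (median −0.00), so the list as a whole lay near all genes. Anapc5, a scaffold subunit, read 11.31 and 11.30 on the day 0 arrays, 11.88 and 11.77 on those of day 3 and 11.84 and 11.82 on those of day 4, a change of 0.53 at day 4 (SE 0.06, adjusted p = 0.000178, limma), and Cdc26 changed by 0.51. All later arrays of Anapc5 lay above day 0. The lower ones were Fbxo5 (−0.72), which encodes Emi1, an inhibitor of the complex, and Anapc11 (−0.31), its RING subunit.

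Of 7 listed genes of cyclin-dependent kinase inhibitors, 6 were measured, and Cdkn1a had no probe set with a single gene symbol. Of the 6 measured, 6 were higher at day 4 than at day 0 (median 0.84) and 5 were higher at day 3. Of all genes, 25.9% were higher at day 4 and 23.8% at day 3. Cdkn1c, which encodes p57, read 9.62 and 9.53 on the day 0 arrays, 10.62 and 10.64 on those of day 3 and 11.25 and 11.11 on those of day 4. The days did not overlap, and the change at day 4 against day 0 was 1.60 (SE 0.07, adjusted p = 1.42e-06, limma). Cdkn2c, which encodes p18, changed by 1.48, and Cdkn1b, which encodes p27, by 0.73. How far these genes changed in the cells that express the mitosis genes was not tested.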
